A study of Mus musculus with 4 samples.

Results

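The 10 genes described here belong to the bone morphogenetic protein (BMP) and transforming growth factor beta (TGF-beta) pathway and were followed by their symbols in the deposited tables of 4 mouse neural stem cell (NSC) lines. They are the ligands *Bmp4*, *Bmp7*, and *Tgfb2*, the type I receptors *Bmpr1a* and *Bmpr1b*, the secreted antagonists *Nog*, *Grem1*, and *Fst*, and the inhibitory Smads *Smad6* and *Smad7*. They make up 10 of the 17419 genes listed in any normalized table. Of the 10, the normalized table listed 8 for XN4, 7 for XN1, 7 for KN1, and 9 for CN4, and the tables of all reads, used here for XN4, XN1, and CN4, listed all 10.

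All 4 lines came from 129/Sv epiblast stem cells (EpiSCs), pluripotent cells of the early postimplantation embryo that were kept with activin A, a TGF-beta family ligand, FGF2, and a lower dose of the Wnt inhibitor XAV939 until activin was withdrawn for neural derivation. EGF and FGF2, at 10 ng/ml each, were given to every line, and the listed additions held no BMP, no TGF-beta, and no inhibitor of either. The XN4 and XN1 lines also received 10 µM of XAV939 (XAV), a tankyrase inhibitor that lowers Wnt signaling, from different suppliers. The study describes crystals of XAV in medium with the supply used for XN1 and infers a lower effective dose there. That dose was not measured here, and the lines share a nominal dose only. The KN1 NSC line received neither XAV nor an activator, and CN4 received 2 µM of CHIR99021 (CHIR), a GSK3 inhibitor that raises Wnt signaling. Each line was 1 derivation and gave 1 BD Rhapsody single-cell library, so no difference between lines has a replicate check and none was tested. Per the study's supplement XN4 and CN4 came from one derivation series and XN1 and KN1 from another, with different experimenters, so that between these pairs the series and the treatment cannot be told apart.

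BMP and TGF-beta dimers bind pairs of type I and type II receptor kinases, which phosphorylate receptor Smads; BMP receptors act mainly through Smad1, Smad5, and Smad9, and TGF-beta and activin receptors through Smad2 and Smad3. Noggin, Gremlin, and Follistatin hold ligands away from the receptors, while Smad6 and Smad7 block the receptors and are themselves induced by the signal. In the early embryo BMP signaling opposes neural induction, and in the neural tube it comes from the roof plate and overlying ectoderm and patterns the dorsal side. The *Id* genes are well-known targets of BMP signaling.

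The libraries differed in ways that touch the values below. The normalized tables held 19271688 to 41539513 reads in 3448 to 3975 cells per line. When each cell was thinned to 3200 reads, the median number of genes per cell was 764 in KN1 and 1649 to 1846 in the other lines. Without thinning, a captured gene carried on average 7.39 reads in KN1 against 2.14 to 3.90. Shares of cells with a read thus lie low in KN1 for a given level, and levels and shares are given side by side. The summed level of 10 neural progenitor markers was 3.63 reads per 10000 in XN4 against 19.3 to 62.9 in the others. *Sox2* was captured in 0.560% of XN4 cells, and *Sox1*, *Sox3*, *Hes5*, and *Fabp7* were not listed there. The other 6 of the 10 were listed in XN4, against 9 or 10 in the other lines. In XN4 3 were captured in at least 10% of cells, against 5 to 10 in the others. The summed level of 15 mesenchymal or connective tissue markers was 116 in XN4 and 0.509 to 3.61 in the others, with *Col3a1* captured in 97.8% of XN4 cells, and 14 of the 15 were listed in XN4 against 9 to 13 in the others. The part of this difference in any result on XN4 was not tested. Pairs of libraries shared 14 to 21 cell barcodes in the normalized tables.

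Promoters of 6 of the 10 genes were found in RefSeq for the GRCm38.p6 build. The 250 bases before the start site are shown for *Bmp4*, a ligand, and *Smad6*, an inhibitor of its receptors. Both were highest in XN4, *Bmp4* when XN4, XN1, and CN4 are compared. The genes lie on the minus strand, and the sequences read 5′ to 3′ toward the start site. Capitals mark GTCT, the short sequence that Smad3 and Smad4 bind (or AGAC, its reverse complement). GGCGCC, a sequence found in known BMP response elements that reads the same on both strands, was searched too. No match of one motif overlapped a match of the other.
Bmp4 (chr14:46390670-46390919): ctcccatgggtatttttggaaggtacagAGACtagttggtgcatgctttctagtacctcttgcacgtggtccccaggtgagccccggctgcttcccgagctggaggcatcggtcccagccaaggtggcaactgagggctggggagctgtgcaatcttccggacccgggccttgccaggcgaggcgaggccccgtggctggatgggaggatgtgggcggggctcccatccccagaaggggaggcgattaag
Smad6 (chr9:64022060-64022309): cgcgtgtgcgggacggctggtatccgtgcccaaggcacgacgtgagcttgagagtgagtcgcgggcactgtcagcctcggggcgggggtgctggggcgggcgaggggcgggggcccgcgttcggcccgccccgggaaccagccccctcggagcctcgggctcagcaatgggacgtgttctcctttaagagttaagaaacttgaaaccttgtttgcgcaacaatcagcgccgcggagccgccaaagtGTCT
The *Bmp4* window held 1 AGAC, 222 bases before the start, and the *Smad6* window held 1 GTCT, 4 bases before the start. GGCGCC was in neither window. Of 32851 windows of the same length, 82.9% held GTCT or AGAC and 9.59% held GGCGCC, so the first is present in most promoters. The GC content was 63.2% for *Bmp4* and 66.8% for *Smad6*, with 11 and 27 CpG dinucleotides, against medians of 52.4% and 6 over all windows. These matches describe the letters only.

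*Bmp4*, a ligand of the BMP2/4 class (chr14:46383520-46390669 of GRCm38, minus strand), was read mainly in XN4. Its level, the reads of the gene per 10000 reads summed over the cells of a line, was 0.291 in XN4 and 0.0113 in CN4, and the normalized tables of XN1 and KN1 did not list it. At least 1 read was found in 12.8% of XN4 cells (503 of 3927; exact Clopper-Pearson 95% interval 11.8 to 13.9) and in 0.435% of CN4 cells (15 of 3448; 0.244 to 0.717). In CN4, 1 cell held 26.9% of the 26 reads. The tables of all reads gave 2932 reads in 1183 of 8741 XN4 cells, 7 reads in 7 of 14452 XN1 cells, and 151 reads in 82 of 18157 CN4 cells. Relative to all reads of the line, *Bmp4* was 278-fold higher in XN4 than in XN1 (exact 95% interval 135 to 692) and 25.0-fold higher than in CN4 (21.2 to 29.7). The deposited tables count reads, not collapsed molecules. Intervals of levels and folds take each read as independent, and they may be too narrow where several reads repeat a molecule. These and all later intervals cover counting error at most. *Bmp4* shares its locus with 2 genes of the opposite strand, and of these Gm15222 had 177 reads in XN4, 1 in XN1, and 14 in CN4. The counting strand is not given in the sources used here, so reads of *Bmp4* and of these genes cannot be told apart.

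*Bmp7*, which encodes a ligand of the BMP5/6/7/8 class (chr2:172868012-172940321, minus strand), was highest in CN4. Its level was 0.368 in CN4, 0.0758 in XN1, 0.0684 in XN4, and 0.0268 in KN1. The counting intervals of XN1 and XN4 overlapped, while CN4 lay 4.86-fold above XN1. Shares of cells followed the same order for CN4, at 14.7% (13.6 to 16.0), against 3.85% in XN4, 2.89% in XN1, and 0.503% in KN1. In the tables of all reads, where 16.1% of CN4 cells had a *Bmp7* read, the level in CN4 was 4.73-fold that in XN1 (4.33 to 5.18) and 6.09-fold that in XN4 (5.61 to 6.63).

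*Tgfb2*, which encodes a TGF-beta ligand (chr1:186622792-186705989, minus strand), was read in all lines, with a smaller range than most of the genes. Its level was 1.58 in XN1, 1.119 in CN4, 0.886 in XN4, and 0.620 in KN1, a range of 2.55-fold. It was captured in 39.2% of XN1, 34.3% of CN4, 29.5% of XN4, and 7.07% of KN1 cells. With each cell thinned to 3200 reads the shares were 31.4% in XN1, 23.0% in CN4, 17.7% in XN4, and 6.15% in KN1, in the same order. XN1 was thus highest by level and by both kinds of share, and KN1 was lowest by level. Shares lie low in KN1 for a given level, so its low shares add nothing to that order. An antisense gene in its span, Gm29491, had 143, 98, and 120 reads in the tables of all reads of XN4, XN1, and CN4, against 8779, 11137, and 16174 for *Tgfb2*.

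*Bmpr1a*, which encodes a type I receptor for BMP2 and BMP4 (chr14:34410734-34503341, minus strand), was the gene of the 10 with the smallest range between lines. Its level was 3.32 in CN4, 2.46 in XN1, 2.30 in KN1, and 1.98 in XN4, a range of 1.68-fold. It was captured in 75.7% of CN4 cells (74.3 to 77.1), 59.8% of XN1, 53.1% of XN4, and 23.4% of KN1. In KN1 the low share went with 6.80 reads in each capturing cell on average, against 2.03 in XN1. KN1 and XN1 differed 1.07-fold in level, while their shares differed widely, and no order of the 2 lines is read from the share.

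*Bmpr1b*, which encodes the related receptor with more restricted expression (chr3:141837136-142169425, minus strand), had the widest range among the 7 genes listed in all 4 lines. Its level was 1.80 in KN1, 0.321 in CN4, 0.0532 in XN4, and 0.0259 in XN1. KN1 lay 5.61-fold above CN4 and 69.5-fold above XN1, sizes that depend on how the level is computed. The log2 difference of XN1 minus KN1 was -6.12, but -4.33 from thinned cells and -8.03 with at least 2 reads per cell. That of CN4 minus KN1 was -2.49, -0.82, and -3.27. Here and below, differences from thinned cells were computed from the share of cells with a read, not from summed reads. Shares lie low in KN1 for a given level, so these differences carry that limit. It was captured in 15.9% of KN1 cells (634 of 3975; 14.8 to 17.1), 14.0% of CN4, 2.50% of XN4, and 1.08% of XN1. At 3200 reads per cell the shares were 14.3% in KN1 (13.2 to 15.5) and 8.36% in CN4 (7.42 to 9.38), so KN1 was also highest by share although its cells yielded fewer genes. Between lines with tables of all reads, CN4 was 10.4-fold above XN1 (9.03 to 12.0).

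The annotated span of *Bmpr1b* is 332 kb, the longest of the 10 genes, and gene length moved with the difference from KN1 over all genes. Reads in introns were counted for XN4, XN1, and CN4 per the file headers, and the setting for KN1 is not given in the sources used here. Over the 578 genes of 300 kb or more, the median log2 difference of CN4 minus KN1 was -2.25, against 0.61 over the genes under 10 kb. *Bmpr1b*, at -2.49, lay close to the median of its length class, in which 216 genes had a still lower value. Against XN1 the same medians were -2.42 and 0.62, and *Bmpr1b*, at -6.12, had 22 of 576 genes below it. Between CN4 and XN1 the long genes had a median of 0.24, and *Bmpr1b*, at 3.63, was higher than 454 of 482. The part of gene length in the *Bmpr1b* level of KN1 was not tested.

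**Figure D1:**
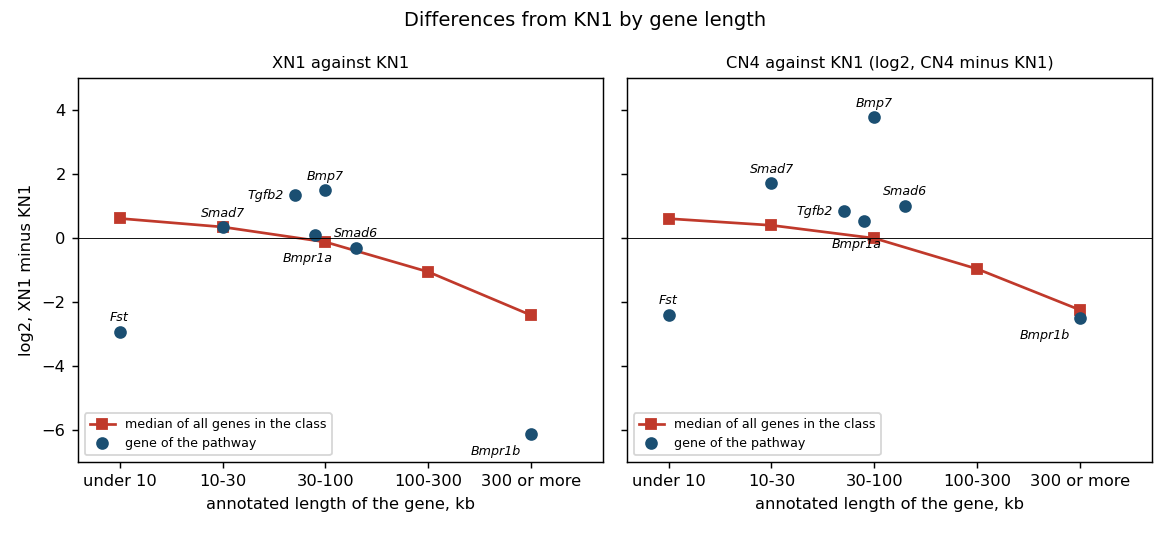
Differences in level from KN1 by annotated gene length in kb, for XN1 minus KN1 (left) and CN4 minus KN1 (right), on a log2 scale. Squares joined by a line are medians over all genes captured in at least 1% of the cells of either line, and circles are the 7 genes of the pathway listed in both lines, offset sideways within a class for legibility. The medians fall from 0.62 and 0.61 in the shortest class to -2.42 and -2.25 in the longest, where *Bmpr1b* lies.

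*Nog*, which encodes Noggin, an antagonist that binds BMP ligands (chr11:89300638-89302332, minus strand), was listed in CN4 alone. Its level there was 0.0392, with a read in 66 of 3448 cells (1.91%; 1.48 to 2.43). The tables of all reads held 377 *Nog* reads in 293 of 18157 CN4 cells, 16 in 15 of 14452 XN1 cells, and 3 in 2 of 8741 XN4 cells. The level in CN4 was 12.1-fold that in XN1 (7.37 to 21.4) and 97.5-fold that in XN4 (33.1 to 475). Between the XAV lines XN1 was 8.04-fold above XN4, with a wide interval (2.30 to 43.0). KN1 did not list *Nog*, its reads there are unknown, and no fold is given.

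*Grem1*, which encodes Gremlin, another secreted BMP antagonist (chr2:113746164-113758646, minus strand), was absent from all 4 normalized tables. The tables of all reads held 3 reads in 3 XN4 cells, 4 reads in 4 XN1 cells, and 45 reads in 10 CN4 cells, of which 28 came from a single cell. These shares, 0.0277% to 0.0551% of cells, are of the same size as that of *Bmp4* in XN1, 0.0484%. *Grem1* was not detectable above such a share at this depth.

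*Fst*, which encodes Follistatin, a binding protein of activins and BMPs (chr13:114452290-114458951, minus strand), was highest in XN4. Its level was 0.250 in XN4, 0.130 in KN1, 0.0248 in CN4, and 0.0171 in XN1. The intervals of CN4 and XN1 overlapped, and XN4 lay 14.6-fold above XN1 and 1.92-fold above KN1. Its reads were found in 9.70% of XN4 cells (8.79 to 10.7), 1.56% of KN1, 1.19% of CN4, and 0.717% of XN1. The KN1 value rested on 62 cells with 5.79 reads each on average, and 6.41% of its reads were in 1 cell. In the tables of all reads XN4 was 11.8-fold above XN1 (9.92 to 14.2) and 8.79-fold above CN4 (7.86 to 9.86).

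*Smad6*, which encodes an inhibitory Smad that acts mainly on BMP receptors (chr9:63953076-64022059, minus strand), was also highest in XN4. Its level was 0.228 in XN4, 0.0527 in CN4, 0.0261 in KN1, and 0.0213 in XN1, and the intervals of KN1 and XN1 overlapped. At least 1 read was present in 11.8% of XN4 cells (10.8 to 12.9), 2.52% of CN4, 0.871% of XN1, and 0.428% of KN1. The tables of all reads placed XN4 10.8-fold above XN1 (8.99 to 13.0) and 3.68-fold above CN4 (3.38 to 4.01).

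*Smad7*, which encodes the inhibitory Smad that acts on both TGF-beta and BMP receptors, lies on chromosome 18 and was higher in XN4 and CN4 than in XN1 and KN1. Its level was 0.101 in XN4, 0.101 in CN4, 0.0389 in XN1, and 0.0308 in KN1, and the counting intervals of XN4 and CN4 overlapped, as did those of XN1 and KN1. The higher lines are those of one derivation series. *Smad6* too was higher by level in XN4 and CN4 than in KN1 and XN1, and only XN4 and CN4 listed *Bmp4* in the normalized tables. *Bmp7*, *Tgfb2*, *Bmpr1a*, *Bmpr1b*, and *Fst* did not divide this way, since for each XN1 or KN1 lay above XN4 or CN4 by level. The part of the series in these values was not tested. The shares were 5.25% in XN4 and 5.13% in CN4 against 1.49% in XN1 and 0.277% in KN1, where the 85 reads came from 11 cells. In the tables of all reads the intervals did separate them, and CN4 was 1.30-fold above XN4 (1.20 to 1.41) and 3.26-fold above XN1 (2.85 to 3.75).

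Over the 8 genes with a level in more than 1 line, 5 of 22 steps between neighboring lines in the order of levels had overlapping counting intervals, those named above for *Bmp7*, *Fst*, *Smad6*, and *Smad7*. The other 17 were apart by these intervals, which take reads as independent and say nothing of the spread between repeated derivations. XN4 was highest for *Fst* and *Smad6*, and for *Bmp4* when XN4, XN1, and CN4 are compared, and *Smad7* was highest in XN4 or CN4, depending on the table. CN4 was highest for *Bmp7* and *Bmpr1a*, and for *Nog* among the same 3 lines, XN1 for *Tgfb2*, and KN1 for *Bmpr1b*.

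**Figure D2:**
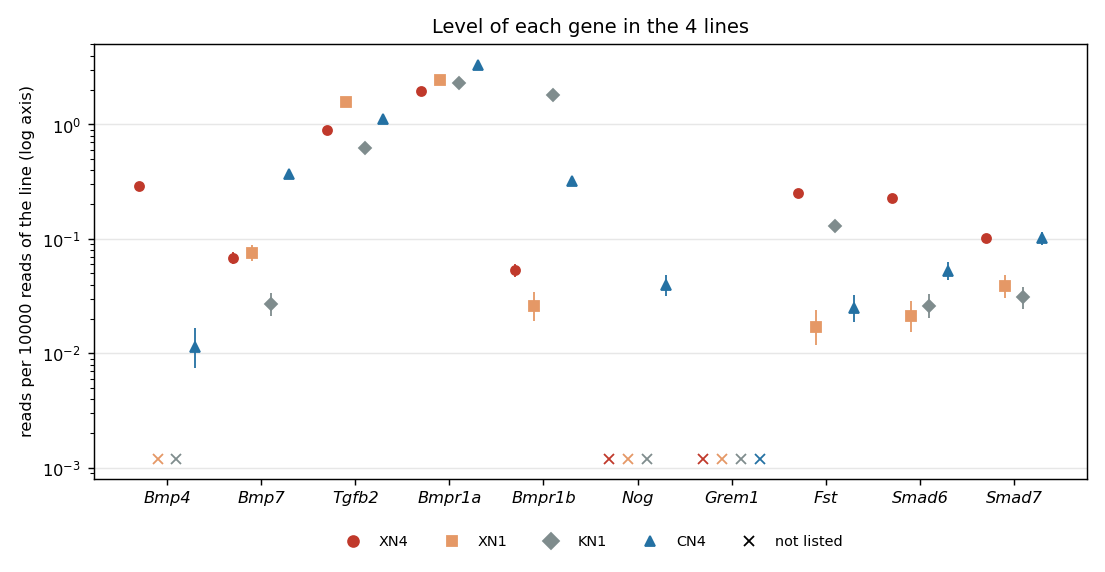
Level of each of the 10 genes in XN4 (circles), XN1 (squares), KN1 (diamonds), and CN4 (triangles), in reads per 10000 reads of the line on a log axis. Bars are exact Poisson 95% intervals of the reads, smaller than most symbols, and crosses at the bottom mark genes not listed in that table. *Bmpr1a* and *Tgfb2* stay within a narrow band, while *Bmp4* and *Bmpr1b* spread the most among the listed genes.

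**Figure D3:**
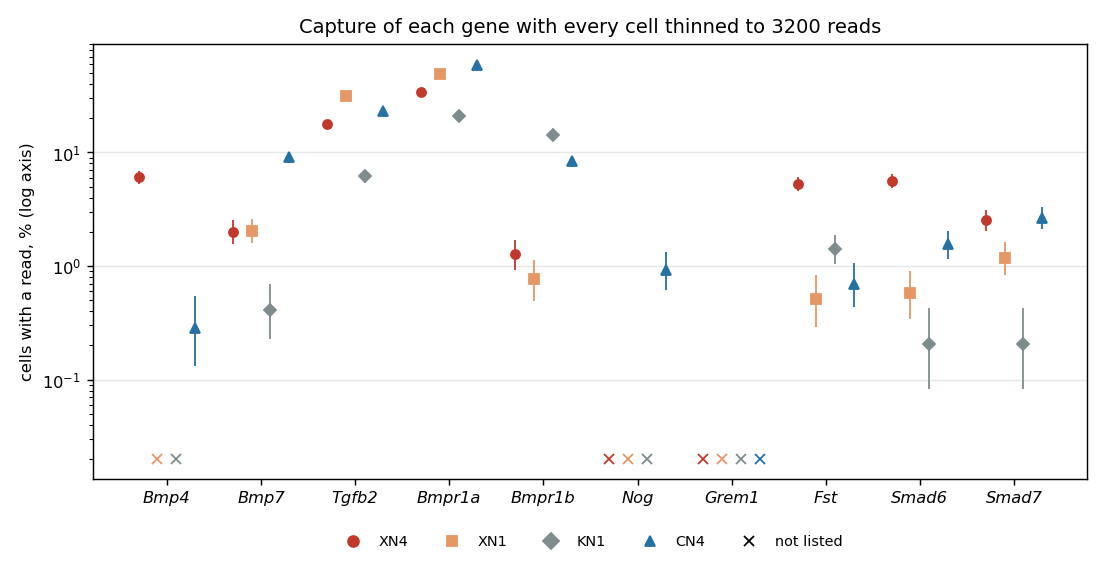
Percent of cells with at least 1 read of each gene after every cell was thinned to 3200 reads, on a log axis, with exact Clopper-Pearson 95% intervals and the same symbols and crosses. KN1 lies lowest for most genes but highest for *Bmpr1b*, at 14.3%.

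The XN4 and XN1 lines, both grown with XAV at the same nominal dose, differed at least 2-fold for 5 of the 8 genes with a level above 3 reads in either line. All 5, *Bmp4*, *Bmpr1b*, *Fst*, *Smad6*, and *Smad7*, were higher in XN4 and none was lower. In the tables of all reads 4 of 9 were higher and 1, *Nog*, was lower. The shares over all genes in those tables are not set beside this count, so nothing is read from it. *Grem1* is not in this count, and it was 2.01-fold lower in XN4 on 3 reads against 4 (0.340 to 13.7). In the normalized tables, over 13232 genes captured in at least 1% of the cells of either line, 20.2% were at least 2-fold higher in XN4 and 14.8% lower. With at least 2 reads per cell 5 of 8 genes were again higher, but so were 50.2% of all genes, with 10.1% lower. The log2 difference was 3.87 for *Fst*, 3.42 for *Smad6*, 1.38 for *Smad7*, and 1.04 for *Bmpr1b*. *Bmpr1b* dropped under 2-fold when lines were scaled to the median gene, when cells were thinned, and in the tables of all reads. *Tgfb2* (-0.83), *Bmpr1a* (-0.31), and *Bmp7* (-0.15) stayed within 2-fold. The median log2 difference was 1.21 over the 8 genes and 0.13 over all genes.

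The XN1 and KN1 lines, with and without XAV, differed at least 2-fold for 4 of 7 genes, in both directions. Of the 6 that pass the same capture filter as all genes, 2 were higher in XN1 and 2 lower. *Bmp7* was 2.82-fold higher in XN1 and *Tgfb2* 2.55-fold higher, while *Bmpr1b* (-6.12 on the log2 scale) and *Fst* (-2.93) were lower. The value for *Fst* ran from -1.47 in thinned cells to -4.61 with at least 2 reads per cell. Over all 12479 genes 25.0% were higher in XN1 and 24.4% lower, and over the 11872 listed in both lines 23.0% and 23.9%, so such differences were common between these libraries. With the mean of the log values the split over all genes turned to 48.6% higher and 11.0% lower in XN1. When only values of at least 2 reads per cell were counted, it was 12.2% and 52.6%, and *Bmp7* and *Tgfb2* were no longer 2-fold apart. In thinned cells it was 59.9% and 8.72%, and all 7 genes were 2-fold apart, 5 of them higher in XN1. The values from thinned cells rest on shares of cells, which lie low in KN1. *Smad6*, at -0.30, was at least 2-fold higher in XN1 from thinned cells (1.48) and at least 2-fold lower with at least 2 reads per cell (-1.63), and no direction is read for it.

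The CN4 and KN1 lines, with and without CHIR, differed at least 2-fold for 5 of the 7 genes listed in both. *Bmp7*, *Smad6*, and *Smad7* were higher in CN4, and *Bmpr1b* and *Fst* were lower. *Bmp4* and *Nog* were not listed in KN1, and no direction is given for them, since an unlisted gene may hold more than 3 reads. Over all 12581 genes 23.5% were higher in CN4 and 20.7% lower, and over the 12126 listed in both lines 21.4% and 20.7%. *Bmp7* had the largest log2 difference of the listed genes, at 3.78, with a read in 20 KN1 cells and 508 CN4 cells. The log2 difference was 1.71 for *Smad7* and 1.01 for *Smad6*. With at least 2 reads per cell both were under 2-fold, at 0.52 and 0.26, and *Smad6* was also under 2-fold when lines were scaled to the median gene and without cells of shared barcodes. In thinned cells, where values rest on shares of cells that lie low in KN1, they were larger, at 3.71 for *Smad7* and 2.92 for *Smad6*. There *Tgfb2* (2.04) and *Bmpr1a* (1.92) also passed 2-fold, while *Bmpr1b* was under it, at -0.82. *Fst*, at -2.39, ran from -1.03 in thinned cells to -3.43 with at least 2 reads. With the mean of the log values the split over all genes was 54.6% higher and 7.81% lower in CN4, in thinned cells 63.2% and 6.77%, and with at least 2 reads per cell 13.0% and 43.0%.

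The CN4 and XN1 lines, with the Wnt activator and the inhibitor, had the fewest differences over all genes among the 4 comparisons made, with 9.55% at least 2-fold higher in CN4 and 9.62% lower among 12518. With at least 2 reads per cell these shares were 21.7% and 9.14%. Of 9 genes of the pathway, 6 were at least 2-fold higher in CN4 and none was lower. Among the 8 that pass the same capture filter as all genes, 5 were higher. *Bmp4*, *Nog*, *Bmpr1b* (3.63 on the log2 scale), *Bmp7* (2.28), *Smad7* (1.38), and *Smad6* (1.31) were higher, and *Bmp4* and *Nog* were not listed in XN1. Among the 7 listed in both lines, 4 were higher. *Bmpr1a* (0.43), *Tgfb2* (-0.50), and *Fst* (0.54) were within 2-fold, but *Fst* passed it with at least 2 reads per cell, at 1.18. All 6 higher genes kept at least 2-fold under each of 8 other ways to compute the level. The comparisons share lines, and so they are not independent of each other.

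**Figure D4:**
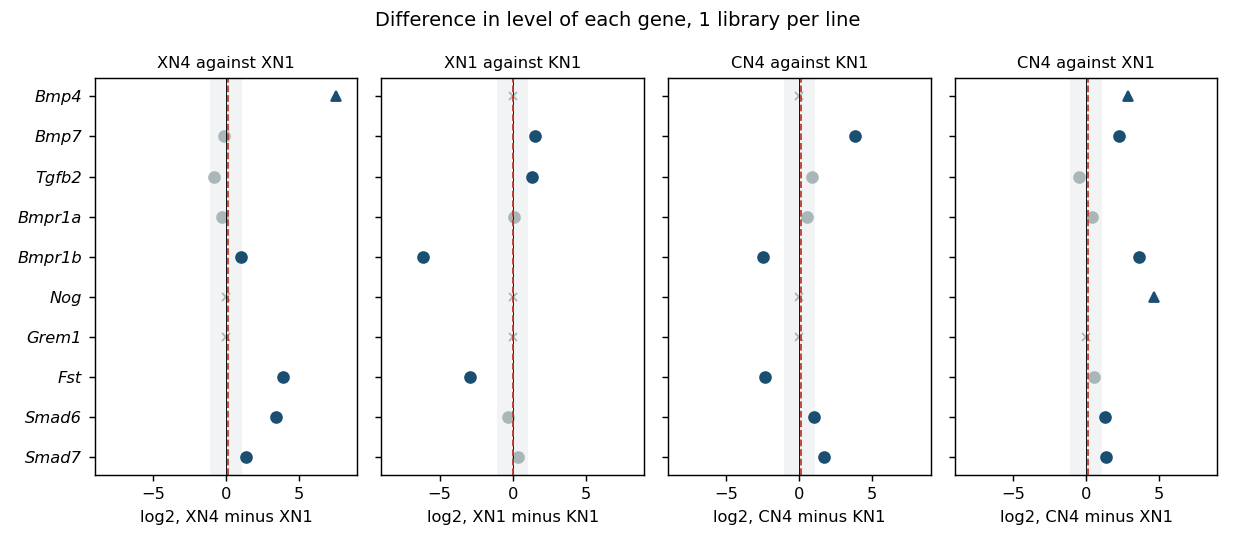
Log2 difference in level of each gene in the 4 comparisons, first line minus second. The gray band is within 2-fold, the dashed line is the median of all genes, triangles mark genes not listed in XN1 and drawn with a floor of 3 reads there, and small crosses mark genes with no difference given. In XN4 against XN1 and in CN4 against XN1 all points outside the band lie to the right.

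The other pathway genes were read from a list of 75, of which 61 were listed in at least 1 line and 44 in all 4. At least 2-fold differences were found for 17 higher and 7 lower of 52 genes in XN4 against XN1, 10 and 7 of 41 in XN1 against KN1, 10 and 8 of 41 in CN4 against KN1, and 7 and 6 of 47 in CN4 against XN1. The KN1 counts hold only genes listed in both lines. On that basis the other counts were 14 and 7 of 49 in XN4 against XN1 and 5 and 5 of 44 in CN4 against XN1. With genes not listed in KN1 set to 3 reads there, which is no bound, 3 more would count as higher in each comparison with KN1. These were *Bmp2*, *Lefty1*, and *Chrd* in XN1 and *Bmp2*, *Chrd*, and *Id4* in CN4. The shares over all genes, higher and lower, were 20.2% and 14.8%, 23.0% and 23.9%, 21.4% and 20.7%, and 9.55% and 9.62%, with the KN1 shares over genes listed in both, and several of the counts lie close to them. For the 16 other BMP-class ligands the clearest value was that of *Bmp5*, a ligand of the same class as *Bmp7*, with a level of 1.75 and a read in 45.5% of cells in CN4, against 0.00578 in XN4 and 0.0109 in KN1, and no listing in XN1. *Bmp6*, of the same class, was highest in XN4, at 0.200 against 0.0144 in CN4, and *Bmp8a* was listed in XN4 (0.00409) and KN1 (0.0102) only. These 2 were named after their values were seen. *Inhbb*, which encodes an activin subunit, was at 0.337 in XN1, 0.209 in CN4, and 0.180 in KN1, but 0.00361 in XN4.

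Among receptors, *Acvr1*, a type I receptor of BMPs, was highest in XN4 at 0.921 against 0.392 to 0.581. *Bmpr2*, the type II receptor that pairs with Bmpr1a and Bmpr1b, kept within 1.78-fold (1.96 to 3.48). *Tgfbr1*, the TGF-beta type I receptor, was highest in KN1 at 3.49 against 0.600 to 1.09, whereas *Tgfbr2*, its type II partner, was highest in XN4 at 1.75 and lowest in CN4 at 0.406. *Tgfbr3*, a coreceptor that presents TGF-beta2, was at 3.16 in XN4 and 0.0710 to 0.253 in the others. By level, none of the 11 receptors captured was at least 2-fold higher in XN1 or CN4 than in KN1, and 4 were lower in each comparison. All 11 were listed in both lines. Over the genes listed in both lines 23.0% were higher and 23.9% lower for XN1, and 21.4% and 20.7% for CN4. The receptors were not counted in thinned cells, so their count holds for summed reads only. In thinned cells, with differences taken from shares of cells, the shares over all genes were 59.9% and 8.72% for XN1 and 63.2% and 6.77% for CN4. The difference from KN1 also moved with gene length over all genes, and the part of length in the receptor counts was not tested. Of the 15 secreted binding proteins, *Fstl1*, a follistatin relative, was at 17.6 in XN4 and 1.22 to 3.76 in the others. *Bmper*, a BMP-binding protein, ranged from 0.0414 in CN4 to 0.440 in XN1, and *Ltbp3*, which binds latent TGF-beta, from 0.207 in KN1 to 2.08 in XN1.

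Of the Smads that carry the signal, *Smad1*, *Smad4*, and *Smad5* stayed within 1.75-fold, 1.72-fold, and 2.44-fold by level over the 4 lines, all highest in CN4 and lowest in KN1. Their shares of cells were further apart. In CN4 and KN1 these were 42.1% and 7.04% for *Smad1*, 58.2% and 11.2% for *Smad4*, and 69.2% and 13.2% for *Smad5*. *Smad3*, which carries the TGF-beta signal, was highest in XN4 at 1.23 against 0.291 to 0.449. Of the BMP-responsive genes, *Id1* was highest in XN4 at 0.605 (22.4% of cells) and lowest in KN1 at 0.118. *Id2* was at 2.06 in XN1 and 1.63 in CN4 but at 0.186 in XN4 and 0.146 in KN1. *Id3* was at 4.55 in CN4, 4.25 in XN4, 2.74 in XN1, and 0.995 in KN1. *Id4* was at 0.502 in CN4 and 0.0151 in XN1, and was not listed in XN4 or KN1. *Id1*, *Id2*, and *Id3* were all lowest in KN1, but the line with the highest level differed among them. Over all genes the difference from KN1 moved with gene length, and the part of length in the *Id* values was not tested. Of the TGF-beta-responsive genes, *Tgfbi*, an extracellular matrix protein, was at 6.67 with 81.5% of cells in XN4 and at most 0.0607 elsewhere, and *Ctgf*, a matricellular protein, was highest in XN1 at 0.938 and lowest in CN4 at 0.0144. *Tgfbi*, *Fstl1*, and *Tgfbr3* were high in the line in which the mesenchymal markers were high, and the part of those markers in these values was not tested.

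For each gene captured in at least 5% of the cells of a line, the most like genes were sought among 11018 others by the distance between log2 levels over the 4 lines, each gene centered on its own mean and with a constant of 0.01 added to each level. The distance thus compares patterns, not heights, and describes 4 points. No match is given for *Bmp4*, which was not listed in XN1 or KN1, so that a constant would set 2 of its 4 points. *Bmp7* lay closest to *Fjx1*, *Cxcl14*, and *Sfrp2*, and *Bmpr1b* to *Slc8a1*, *Fgfr3*, and *Nrxn3*. *Fst* lay closest to *Pdzrn3*, *Avil*, and *Pknox2*, *Smad6* to *Lhfpl2*, *Fam129b*, and *Mmd*, and *Smad7* to *Fbln1*, *Amot*, and *Carhsp1*. *Tgfb2* lay closest to *Gpi1* at a distance of 0.0198, followed by *2310039H08Rik* and *Ralgds*, and *Bmpr1a* to *Pdhx*, *Kpna3*, and *BC003965*. Of these genes *Cxcl14* was not listed in KN1 and *Avil* not in XN1, and the constant sets those points.

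Whether the genes varied with division was looked at within each line after thinning to 3200 reads. Cells with reads of at least 2 of *Mki67*, *Top2a*, and *Hmgb2*, genes of dividing cells, were set against cells with none. *Tgfb2* was captured less often in dividing cells of XN4 (12.3% of 742 against 20.0% of 1968), XN1 (18.5% of 800 against 37.1% of 1755), and CN4 (18.1% of 1752 against 32.2% of 811), with exact intervals apart in each. In KN1 the shares were 6.32% of 854 and 5.92% of 1538 and the intervals overlapped. At 2000 reads per cell, with dividing cells taken as those with at least 1 of the genes, the intervals overlapped in XN4 (10.8% against 13.6%) and stayed apart in XN1 and CN4. *Fst* was captured in 3.10% of dividing and 5.89% of other XN4 cells, but in 2.11% of dividing (18 cells) and 0.585% of other KN1 cells (9 cells), and at 2000 reads per cell the intervals overlapped in both lines. *Bmpr1a* had ratios of dividing over other cells between 0.957 and 1.09, and at 3200 reads the intervals of the other members overlapped in each line that listed them. At 2000 reads they were apart for *Bmp7* in CN4 (5.80% of dividing against 8.84% of other cells) and *Bmpr1b* in KN1 (14.2% against 10.3%).

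**Figure D5:**
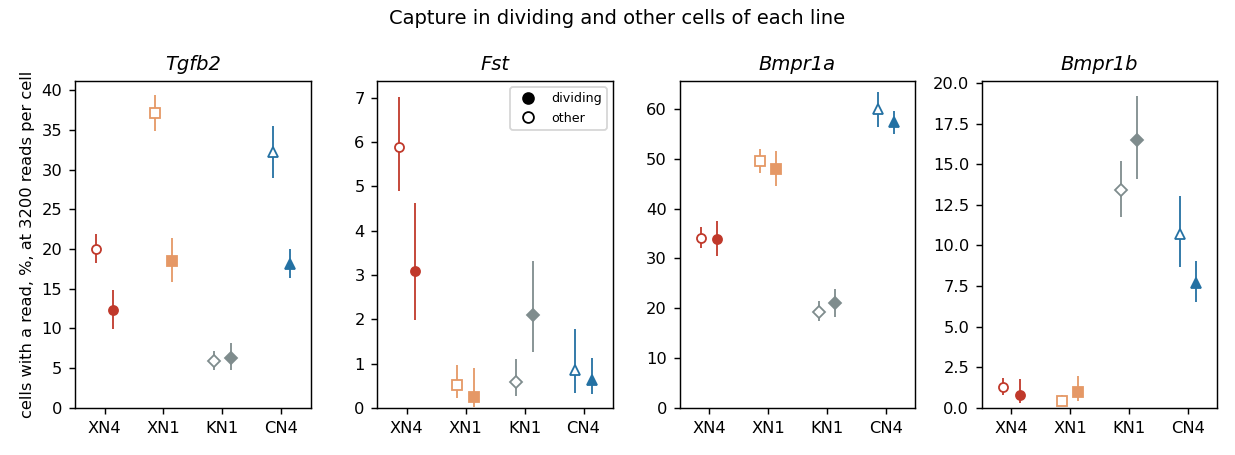
Percent of cells with a read of *Tgfb2*, *Fst*, *Bmpr1a*, and *Bmpr1b* in other cells (open symbols) and dividing cells (filled symbols) of each line, thinned to 3200 reads, with exact Clopper-Pearson 95% intervals. *Tgfb2* is lower in dividing cells of XN4, XN1, and CN4, *Fst* lies in opposite order in XN4 and KN1, and *Bmpr1a* is nearly level.

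Pairs of transcripts in the same cell were counted against the number expected within 20 strata of cells with like total reads, for the 10 genes and *Id1* to *Id4*. Of the pairs with at least 10 expected cells, the exact interval of the ratio lay above 1 for 2 and below 1 for 1 of 52 in XN4, for none of 33 in XN1 and 14 in KN1, and above 1 for 6 of 55 in CN4. In all 9 of 154 were apart, and in the tables of all reads, which leave out KN1, 24 of 167. The 95% intervals are not adjusted for the number of pairs, and the pairs below are given as values. In XN4 *Fst* was found with *Smad7* in 36 cells against 24.7 expected (ratio 1.46; 1.02 to 2.01) and with *Tgfb2* in 165 against 133 (1.24; 1.06 to 1.44). Both *Fst* and *Tgfb2* were captured less often in dividing XN4 cells at 3200 reads, and the part of division in this pair was not tested. *Bmp4* was found with *Id2* in 44 XN4 cells against 60.7 expected (0.724; 0.526 to 0.972). In CN4 *Id4*, a gene known to respond to BMP, was found with *Tgfb2* in 209 cells against 155 (1.35; 1.17 to 1.55; 1.34 in the table of all reads) and with *Bmpr1b* in 91 against 63.2 (1.44; 1.16 to 1.77). *Id2* was found with *Smad6* in 46 CN4 cells against 33.2 (1.38; 1.01 to 1.85), a ratio whose interval held 1 with 50 strata. The remaining 3 pairs were among *Id1*, *Id2*, and *Id4*. Like *Tgfb2*, *Id4* was captured less often in dividing CN4 cells (6.11% against 15.9%), and the part of division in their pairing was not tested. *Bmp4* and *Id1* were found together in 151 XN4 cells against 159 expected (0.952; 0.806 to 1.117). *Bmp4* and *Id3* were found together in 422 against 425 (0.994; 0.901 to 1.093). Whether *Bmp4* acts on the *Id* genes was not tested, and counts in the same cell cannot tell. The median ratio was 1.01 in XN4 and 1.05 in CN4, and most pairs lay near the number expected from depth.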

How the data were processed

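Single-cell libraries of 4 mouse lines were made with the BD Rhapsody whole transcriptome assay, 1 per line. The headers of the tables of all reads name the BD Rhapsody WTA Analysis Pipeline 1.12.1, and the submitters' processing notes name mm10 and Seurat 4.3.0. The deposited files hold counts of reads per cell (XN4, XN1, and CN4) and natural log values scaled to 10000 reads per cell by the authors (all lines). Whole reads were recovered from the deposited natural log values. A level is 10000 times the reads of a gene over all reads, summed over cells. Shares of cells have exact Clopper-Pearson 95% intervals, and cells were also thinned to 3200 reads, which left out 290 to 776 cells per line. Differences between lines in thinned cells were computed from the share of cells with a read, not from summed reads. A gene under 3 reads or not listed in a line was set to a floor of 3 reads there. For an unlisted gene this is no bound. Such genes held up to 77 reads in XN4, 38 in XN1, and 124 in CN4, and their reads in KN1 are unknown. Differences of at least 2-fold were counted beside all genes captured in at least 1% of cells. With 1 library per line no test was made.

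The 10 genes and the lists were chosen with earlier results of these data known. Other pathway genes were named if captured in at least 10% of the cells of a line and at least 4-fold apart between lines, and 11 were named whatever their values. The 3 genes with the most like pattern were named for each gene captured in at least 5% of the cells of a line, except *Bmp4*, which 2 lines do not list. Positions are from GENCODE on GRCm38. The XN4 table ended in the alphabet after *Zpr1*, and 33 genes beyond it, with 0.115% of its reads, were kept out of its backgrounds. Other ways to compute levels, thresholds, thinning depths, and strata were tried, and gene length, shared barcodes, and listing in both tables were added after seeing the data. Scripts were tested on simulated data. Python 3.11.15, NumPy 2.4.6, SciPy 1.17.1, pandas 2.3.3, and matplotlib 3.10.9 were used.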

Additional observations from a re-analysis of the deposited data

Results flagged for a closer look

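*Fst* stood in opposite order between dividing and other cells of 2 lines. The share of dividing cells with a read over that of other cells was 0.526 in XN4, with 23 and 116 capturing cells, and 3.60 in KN1, with 18 and 9. The difference between the lines was not tested, since each is 1 library. At 2000 reads per cell the ratios were 0.558 and 1.55 and the intervals overlapped in both lines.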

How the results depend on the processing

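No paired analysis was possible because each line is 1 library. No difference of at least 2-fold as reported turned its direction. *Smad6* in XN1 minus KN1, within 2-fold as reported, passed 2-fold in opposite directions (1.48 thinned, -1.63 with at least 2 reads per cell). With a 3-fold threshold, 3 genes were apart between XN4 and XN1 in place of 5, and 2 between XN1 and KN1 in place of 4. The shares over all genes at that threshold are not set beside these counts, so nothing is read from them. With cells thinned to 3200 reads, 7 were apart between XN1 and KN1, where 59.9% of all genes were higher in XN1 and 8.72% lower. In CN4 against KN1 the background was 63.2% and 6.77%. These thinned values rest on shares of cells, which lie low in KN1. With at least 2 reads per cell the background was 50.2% higher and 10.1% lower in XN4 against XN1, and 21.7% and 9.14% in CN4 against XN1. In the tables of all reads, which leave out KN1, 24 of 167 pairs of transcripts were apart from the expected number. The normalized tables gave 9 of 154, of which 14 pairs were from KN1 with none apart. The other totals over both directions stayed within 1.5 times their value. By direction, the higher genes went from 2 to 0 in XN1 against KN1 with at least 2 reads per cell, and in CN4 against KN1, counted with the floor of 3 reads, from 5 to 3 with at least 2 reads and the lower ones from 2 to 1 when thinned. Of 492 alternatives of single values, 188 moved by more than their counting interval. Depth limits *Grem1* and *Nog*, and *Smad7* in KN1 rests on 11 cells. The spread between derivations is unknown for every line.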
